A study of Mus musculus with 3 samples.

Results

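The genes that build and acidify the lysosome and its pigmented relative, the melanosome, were examined for TFAP2A peaks in mouse melanocytes. The set held 38 of 22367 protein-coding genes and was chosen by function: 14 subunits of the vacuolar H+-ATPase (V-ATPase), 13 genes of the Hermansky-Pudlak syndrome (HPS) complexes, the AP-3 adaptor and related trafficking proteins, and 11 genes of lysosomal membrane proteins, proteases, glycosidases and an activator. The members were listed by function, but with earlier results of these data known, which limits every share set against the background. The cells were melan-a, an immortalized melanocyte line from normal embryonic skin with the Cdkn2a tm1RDp/tm1RDp genotype, grown without treatment. TFAP2A-bound chromatin was precipitated with the AP-2alpha (3B5) antibody in 2 ChIP replicates from independent experiments, and 1 input library was not analysed here. All libraries came from this single line, so the values describe melan-a cells and not melanocytes of several animals. The peak lists held 18528 peaks in replicate 1 and 21459 in replicate 2. They give no read totals, so the depth behind a peak is unknown, and no RNA was measured in these files.

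Melanosomes are lysosome-related organelles. The V-ATPase, a rotary proton pump with a membrane sector (V0) and a cytosolic sector (V1), acidifies both compartments. AP-3, the BLOC complexes and LYST direct cargo such as tyrosinase to the maturing melanosome, and loss of several of them gives Hermansky-Pudlak or Chediak-Higashi syndrome, in which pigment is reduced. Transcription factors of the MiT/TFE family, which includes MITF, bind E-boxes in the promoters of many lysosomal genes.

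A pair of windows was used throughout. The promoter window covered 5 kb before and 1 kb after any annotated transcription start site (TSS), and the gene window covered the gene body and 10 kb around it. A gene was counted in both replicates when each replicate placed at least 1 peak summit, the position of highest signal in a peak, in the window. Enrichment is the fold over background of the deposited lists, given as mean ± SD of 2 replicates.

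At promoters, TFAP2A summits were found in 13 of 38 genes in replicate 1 and in 15 in replicate 2, beside 18.6% and 20.9% of all 22328 other coding genes. In both replicates there were 12 genes (31.6%, exact 95% interval 17.5 to 48.7%), beside 17.1% of other coding genes. These were Atp6v0a1, Atp6v0b, Hps4, Hps5, Hps6, Dtnbp1, Npc1, Ctsb, Ctsd, Ctsl, Hexa and Psap. A further 4 genes had a promoter summit in 1 replicate only, and 22 had none. The interval covers counting error over genes only, and no test was made, since genes are not replicates. The counts differed between the 3 classes. The V-ATPase had 2 of 14 genes (14.3%, 1.78 to 42.8%), a share near that of all other coding genes, and 3 of 14 (21.4%) in each replicate alone. The HPS and AP-3 class had 4 of 13 (30.8%, 9.09 to 61.4%), and the lysosomal class had 6 of 11 (54.5%, 23.4 to 83.3%). The intervals of the classes overlapped each other.

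**Figure D1:**
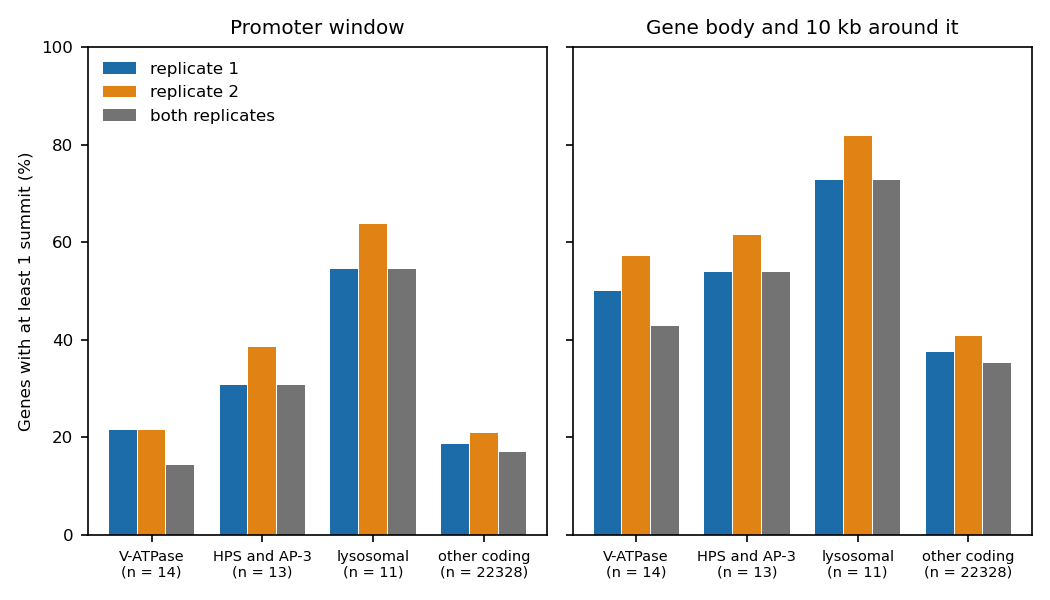
Percentage of genes with at least 1 TFAP2A summit in the promoter window (left) and in the gene body and 10 kb around it (right), for the 3 classes and all other coding genes, in replicate 1, replicate 2 and both. The lysosomal bars are the highest in each panel, and the V-ATPase promoter bar for both replicates (14.3%) is below that of other coding genes (17.1%), while in each replicate alone it is above (21.4%, beside 18.6% and 20.9%).

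CpG content moved with the set. A CpG-rich promoter, with an observed to expected ratio of at least 0.6 in the 300 bp around a TSS, was found in 36 of the 38 genes (94.7%) and in 53.8% of other coding genes. On CpG-rich promoters, 12 of 36 members (33.3%, 18.6 to 51.0%) had a summit in both replicates, beside 26.0% of other genes of that kind. The members below the ratio were Ap3d1 and Lamp1, so every V-ATPase gene was of that kind. The V-ATPase share of 14.3% was below 26.0%, and its interval (1.78 to 42.8%) holds that value. The width of the promoter windows was alike, with a mean of 9.89 kb per member and 9.85 kb per other gene and a median of 2 TSSs in each.

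The 12 promoters with a summit in both replicates held 16 regions. Mean enrichment in them ran from 3.60 to 18.3, and replicate 2 was higher in 15 of 16, by a median ratio of 1.13 (0.964 to 1.82). The summits of the 2 replicates lay a median of 26.5 bp apart (3 to 99 bp). Over all promoter summits, the median enrichment of the members was 5.16 ± 0.495 (SD, n = 2) and that of other coding genes was 4.75 ± 0.197 (SD, n = 2). In replicate 1 the members gave 4.81 and the other genes 4.61, and in replicate 2 they gave 5.51 and 4.88. The members were thus higher within each replicate, by less than the largest difference between replicates of 1 group. By median −log10 p of the peaks the members were lower in replicate 1 (19.3 and 21.7) and higher in replicate 2 (26.3 and 21.4). Of the 16 regions, 9 lay within 1 kb of a TSS of the gene and 7 lay farther away. For 5 regions the nearest coding TSS belonged to a neighbour. When a summit counted only for the gene of the nearest coding TSS, a rule chosen after the values were seen, 10 of 38 members (26.3%) and 15.0% of other coding genes had one in both replicates. By class this left 1 of 14 V-ATPase genes, 3 of 13 HPS and AP-3 genes and all 6 of the lysosomal genes.

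**Figure D2:**
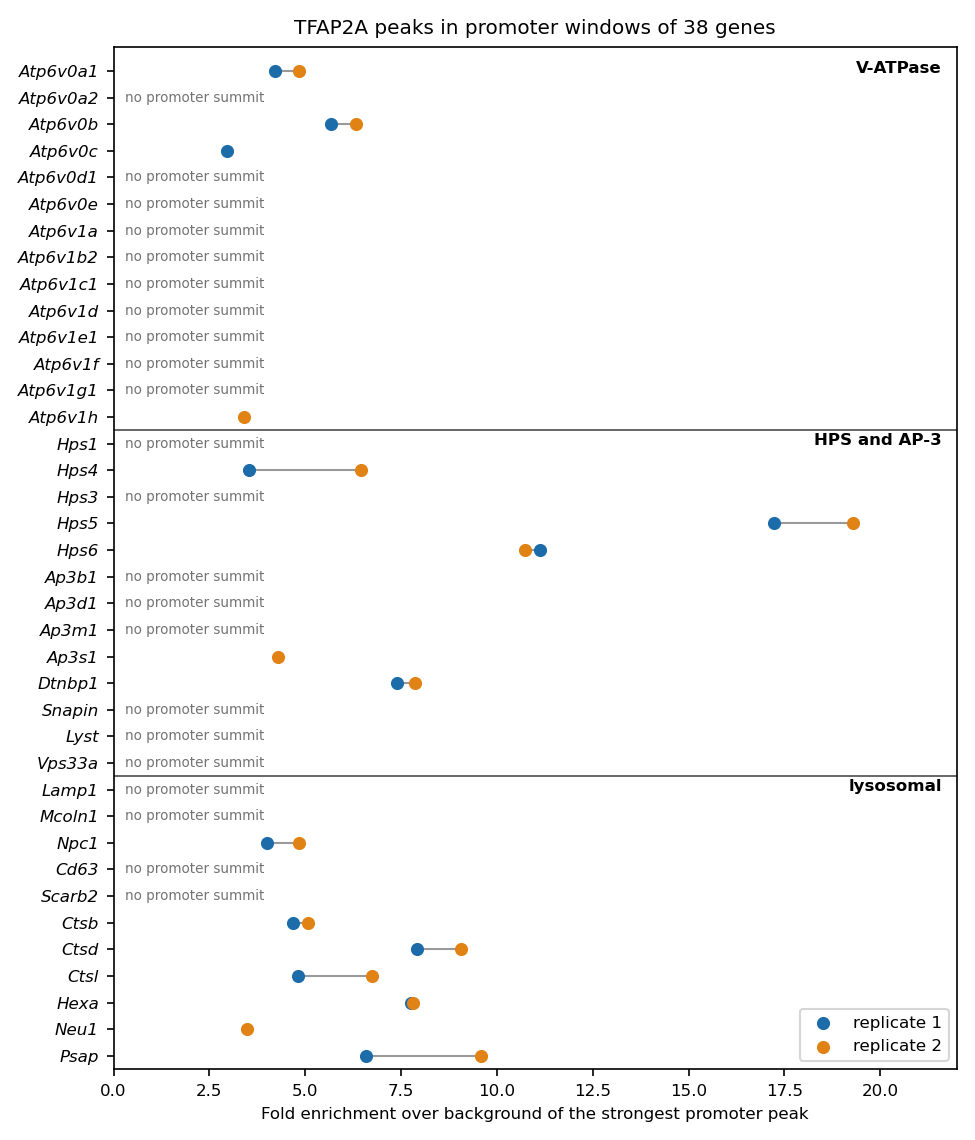
Fold enrichment over background of the strongest TFAP2A peak in the promoter window of each of the 38 genes, with replicate 1 in blue, replicate 2 in orange and a line joining the replicates. Hps5 (17.2 and 19.3) and Hps6 (11.1 and 10.7) stand highest, and most V-ATPase rows are empty.

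Within the HPS and AP-3 class, the promoters with a summit in both replicates belonged to subunits of 3 different BLOC complexes. BLOC-2, made of HPS3, HPS5 and HPS6, carried the highest promoter enrichment of the whole set. Hps5 (chr7:54015836-54051434, minus strand) had an enrichment of 17.2 in replicate 1 and 19.3 in replicate 2 (18.3 ± 1.46, SD, n = 2) at 2995 and 3042 bp upstream of its TSS. This position lay in an intron of the divergent neighbour Gtf2h1, a subunit of the general transcription factor TFIIH, whose TSS was 2388 bp away and nearer. Hps5 also had a weaker region of 4.03 and 4.07 at 409 and 389 bp upstream of its TSS. That region too lay in an intron of Gtf2h1, whose TSS was nearer, at 198 bp from the replicate 1 summit. Another region, of 5.00 and 5.94, lay in an intron of Hps5 near an internal TSS. Hps6 (chr19:46077968-46080663, plus strand) had 11.1 in replicate 1 and 10.7 in replicate 2 (10.9 ± 0.280, SD, n = 2) at 65 and 49 bp upstream of its single TSS. A second Hps6 region of 3.86 and 4.33 lay almost 5 kb upstream, at the TSS of the neighbour 9130011E15Rik. Hps3, the third BLOC-2 subunit, had no summit in either window.

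Dtnbp1, which encodes dysbindin of BLOC-1, had 7.39 and 7.86 (7.63 ± 0.333, SD, n = 2) in its intron at 589 and 506 bp downstream of the TSS. Replicate 2 added a peak of 3.56 at 3874 bp upstream. Snapin, the other BLOC-1 member of the set, had none. For BLOC-3, which is an exchange factor for RAB32 and RAB38, Hps4 had 3.54 in replicate 1 and 6.45 in replicate 2 (4.99 ± 2.05, SD, n = 2). That summit was 1486 and 1483 bp upstream of Hps4 and lay in an intron of its neighbour Srrd. The Srrd TSS was nearer, at 1390 bp from the replicate 1 summit. The ratio of 1.82 between the replicates was the largest of the 16 regions. Hps1, the partner of HPS4, had no summit in either window. AP-3 is the adaptor that sorts cargo from endosomes to lysosome-related organelles. None of its 4 genes was counted at the promoter in both replicates (0%, interval 0 to 60.2%, beside 17.1%), and 2 of the 4 were in the gene window (50.0%, beside 35.3%). Ap3s1 had one of 4.28 at 946 bp downstream of the TSS in replicate 2 only, and Ap3m1 had its nearest summits at 4087 and 4049 bp downstream. Ap3b1 had 1 intronic summit of 3.49 in replicate 2 only, 23.3 kb from the TSS, and Ap3d1 had none in either window. Vps33a, a subunit of the HOPS and CORVET tethers, had its nearest summit 107.0 kb away in replicate 1.

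The sequences at the strongest promoter summits of Hps5, Hps6 and Dtnbp1 are given to show the letters beside the enrichment. The sequence at the strongest Lyst summit, which lay outside the promoter window, is added to these. Each is 101 bp centred on the replicate 1 summit, 5′ to 3′ on the strand of the gene, from mm9, and capitals mark matches to the TFAP2 consensus GCCNNNGG on either strand. Where matches overlap, the capitals run together.
Hps5, chr7:54054379-54054479, minus strand: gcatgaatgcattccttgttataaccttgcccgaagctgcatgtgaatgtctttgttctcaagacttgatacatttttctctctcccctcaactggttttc
Hps6, chr19:46077853-46077953, plus strand: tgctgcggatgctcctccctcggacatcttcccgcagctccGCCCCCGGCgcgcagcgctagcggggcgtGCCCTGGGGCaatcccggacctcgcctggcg
Dtnbp1, chr13:45096870-45096970, minus strand: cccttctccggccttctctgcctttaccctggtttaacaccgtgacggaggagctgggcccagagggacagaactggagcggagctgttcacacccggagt
Lyst, chr13:13684248-13684348, plus strand: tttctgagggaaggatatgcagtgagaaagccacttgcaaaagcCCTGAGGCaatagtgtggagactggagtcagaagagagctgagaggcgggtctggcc
The Hps6 window held 4 matches in 2 overlapping pairs, and the Hps5 window, with the higher enrichment, held 0, each with the same number at the replicate 2 summit. The Dtnbp1 window held 0 at the replicate 1 summit and 1 at that of replicate 2. The Lyst window held 1.

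Lyst (chr13:13682676-13869710, plus strand), the lysosomal trafficking regulator that is mutated in the beige mouse, showed how much the edge of the window decides. Its strongest summits, which were also the nearest to the TSS, lay in an intron at 1622 and 1637 bp downstream of the TSS, just outside the promoter window. Enrichment there was 28.6 in replicate 1 and 33.1 in replicate 2 (30.9 ± 3.14, SD, n = 2), the highest of any peak in the gene windows of the 38 genes. Other summits near the edge were those of Atp6v1g1 at 1136 and 1089 bp downstream (6.19 ± 0.771, SD, n = 2). On the inside, the Ctsd summit was 971 bp downstream in replicate 1, the Hps6 distal region was 4946 and 4978 bp upstream and the Psap region was 4897 and 4877 bp upstream.

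For the V-ATPase, both genes with a promoter summit in both replicates encode V0 subunits. Of the 6 V0 genes, which form the proton channel and its rotor ring, Atp6v0a1 and Atp6v0b were counted (33.3%, 4.33 to 77.7%). Of the 8 V1 genes, which form the ATP-hydrolysing head and its stalks, 0 were (interval 0 to 36.9%). Both intervals hold the background of 17.1%, and that of V1 holds the V0 share. Atp6v0a1, which encodes the a1 channel subunit, had 4.22 and 4.85 (4.53 ± 0.446, SD, n = 2) close to an internal TSS. A stronger region of 15.4 and 15.6 (15.5 ± 0.154, SD, n = 2) lay 6.18 kb upstream of its first TSS, outside the window, with 2 TFAP2 matches. Atp6v0b, which encodes a subunit of the rotor ring, had 5.67 and 6.32 (6.0 ± 0.456, SD, n = 2) at 4835 and 4819 bp upstream. That summit was 136 bp from the TSS of the neighbour Dph2, an enzyme of diphthamide synthesis, so the region cannot be given to either gene from these lists. Atp6v0c, the other rotor ring gene, had 2.95 at 79 bp upstream in replicate 1 only. Atp6v1h, whose product regulates the pump from the V1 sector, had 3.41 at 67 bp downstream in replicate 2 only. The remaining 10 genes had no promoter summit: Atp6v0a2, Atp6v0d1, Atp6v0e, Atp6v1a, Atp6v1b2, Atp6v1c1, Atp6v1d, Atp6v1e1, Atp6v1f and Atp6v1g1.

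The Atp6v0b summit window is shown because it lies close to the TSS of Dph2. It held 1 match, and the window at the replicate 2 summit held 2.
Atp6v0b, chr4:117564723-117564823, minus strand: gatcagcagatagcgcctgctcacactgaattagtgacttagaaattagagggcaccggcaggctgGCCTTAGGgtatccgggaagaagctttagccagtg

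In the lysosomal class, all 3 proteases and 2 of the 3 genes for glycosidases and the activator had a promoter summit in both replicates, and 1 of the 5 genes for membrane proteins did. Grouped together, a step taken after the values were seen, the enzymes and Psap gave 5 of 6 genes in both replicates and 6 of 6 in replicate 2, beside 17.1% and 20.9% of other coding genes. No test was made of the difference from the membrane proteins, and among 26 further lysosomal genes, 5 (19.2%) were counted. Ctsd (chr7:149557053-149573943, minus strand) encodes cathepsin D, the aspartic protease of the lysosome. Its peak reached 7.91 in replicate 1 and 9.06 in replicate 2 (8.49 ± 0.811, SD, n = 2) in an intron, at 971 and 1018 bp from the same TSS. The replicate 2 summit was counted through another annotated TSS of Ctsd, 4134 bp from it.

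Ctsl, the cysteine protease cathepsin L, had 2 regions upstream, of 3.21 and 3.99 (3.60 ± 0.553, SD, n = 2) at 186 and 152 bp and of 4.81 and 6.74 (5.77 ± 1.36, SD, n = 2) at 3512 and 3541 bp. Ctsb, the cysteine protease cathepsin B, had 4.68 and 5.07 (4.88 ± 0.280, SD, n = 2) at 138 and 237 bp downstream. Each protease therefore had at least 1 region within about 1 kb of a TSS. Hexa (chr9:59387474-59412914, plus strand), the alpha subunit of beta-hexosaminidase, had 7.76 and 7.81 (7.79 ± 0.0375, SD, n = 2) at 228 and 215 bp upstream. Psap encodes prosaposin, the precursor of the saposin activators of sphingolipid hydrolysis, and had 6.57 and 9.60 (8.08 ± 2.14, SD, n = 2) almost 5 kb upstream. Neu1, the lysosomal sialidase, had 3.48 at 72 bp downstream in replicate 2 only.

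Among the membrane proteins, Npc1, which exports cholesterol from the lysosome, had 3.99 and 4.85 (4.42 ± 0.605, SD, n = 2) at 644 and 649 bp upstream. Cd63, a tetraspanin needed for sorting of the melanosomal fibril protein PMEL, had no promoter summit, and its nearest was about 8 kb upstream (4.79 ± 0.421, SD, n = 2). Scarb2, the receptor that carries glucocerebrosidase to the lysosome, had none in the promoter window but several in its introns. Lamp1, the main glycoprotein of the lysosomal membrane, had its nearest summit 303.9 kb away in each replicate, and Mcoln1, the lysosomal calcium channel mucolipin 1, had its nearest 105.6 kb away.

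The summit windows of the lysosomal genes among the 8 members of highest promoter enrichment are given in the same way.
Ctsd, chr7:149572703-149572803, minus strand: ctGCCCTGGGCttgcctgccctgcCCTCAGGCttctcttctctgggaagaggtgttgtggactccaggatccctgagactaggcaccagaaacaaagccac
Psap, chr10:59735428-59735528, plus strand: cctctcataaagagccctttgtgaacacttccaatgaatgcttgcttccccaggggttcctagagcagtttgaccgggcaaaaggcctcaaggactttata
Hexa, chr9:59387196-59387296, plus strand: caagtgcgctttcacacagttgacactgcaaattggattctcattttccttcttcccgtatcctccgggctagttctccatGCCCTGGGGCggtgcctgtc
Ctsl, chr13:64475076-64475176, minus strand: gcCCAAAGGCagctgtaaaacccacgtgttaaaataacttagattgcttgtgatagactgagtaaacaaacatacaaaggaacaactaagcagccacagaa
The Ctsd window held 3 matches, but the window at its replicate 2 summit held 0. Hexa held 2, Ctsl 1 and Psap 0 at the summits of both replicates. The Ctsl window also held the E-box cacgtg, left in lower case, and was the only one of the 16 promoter regions with an E-box within 50 bp of the replicate 1 summit.

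Across all promoter summits, the members were close to other coding genes in their TFAP2 sites. The consensus lay within 50 bp of 12 of 17 member summits in replicate 1 (70.6%, 44.0 to 89.7%) and of 13 of 20 in replicate 2 (65.0%, 40.8 to 84.6%). For other coding genes the shares were 63.0% and 66.8%. The mean over replicates was 67.8 ± 3.95% (SD, n = 2) for members and 64.9 ± 2.69% (SD, n = 2) for the others, so the difference was within the spread between replicates. At positions 400 bp away on each side, the share was 23.5% for members and 23.1% for the others. Of the 16 regions with a summit in both replicates, 11 held the consensus at the replicate 1 summit, in 9 of the 12 genes. An E-box (CACGTG) lay near 1 member summit in each replicate, beside 2.55% and 2.82% of other promoter summits. The M-box TCATGTG, which MITF binds, lay near 0 of 17 and 0 of 20, with exact upper bounds of 19.5% and 16.8%, beside 1.06% and 1.4% of other promoter summits.

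E-boxes were more frequent in the promoters of the members than in those of other coding genes, whether a peak was present or not. In the 300 bp promoters (250 bp upstream to 50 bp downstream of any TSS), CACGTG was found in 20 of 38 members (52.6%, 35.8 to 69.0%) and in 13.0% of other coding genes. The longer TCACGTGA was found in 10 members (26.3%, 13.4 to 43.1%) and 1.54% of the others. Both matches were counted on either strand, and each TCACGTGA also holds a CACGTG. On CpG-rich promoters alone the E-box shares were 52.8% of 36 members and 18.5% of others, and those of the longer form were 27.8% and 2.43%. The TFAP2 consensus was in 32 of 38 members (84.2%) and 70.1% of others, and on CpG-rich promoters in 86.1% and 87.2%. At the first TSS of CpG-rich genes it was in 80.6% and 71.4%. The longer form GCCNNNGGC was in 28.9% of members and 29.7% of others, and on CpG-rich promoters in 30.6% and 43.9%. Within the set, E-boxes were in 6 of the 12 genes with a promoter summit in both replicates and in 14 of the 26 without. They were in 8 of the 12 genes that had no summit in the gene window. The M-box was in 7 of 38 members (18.4%, 7.74 to 34.3%) and 7.51% of other coding genes. At the first TSS alone it was in 2 members (5.26%) and 3.39% of others, and the E-box in 15 members (39.5%) and 7.73% of others. By class, E-boxes were in 7 of 14 V-ATPase genes, 7 of 13 HPS and AP-3 genes and 6 of 11 lysosomal genes.

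**Figure D3:**
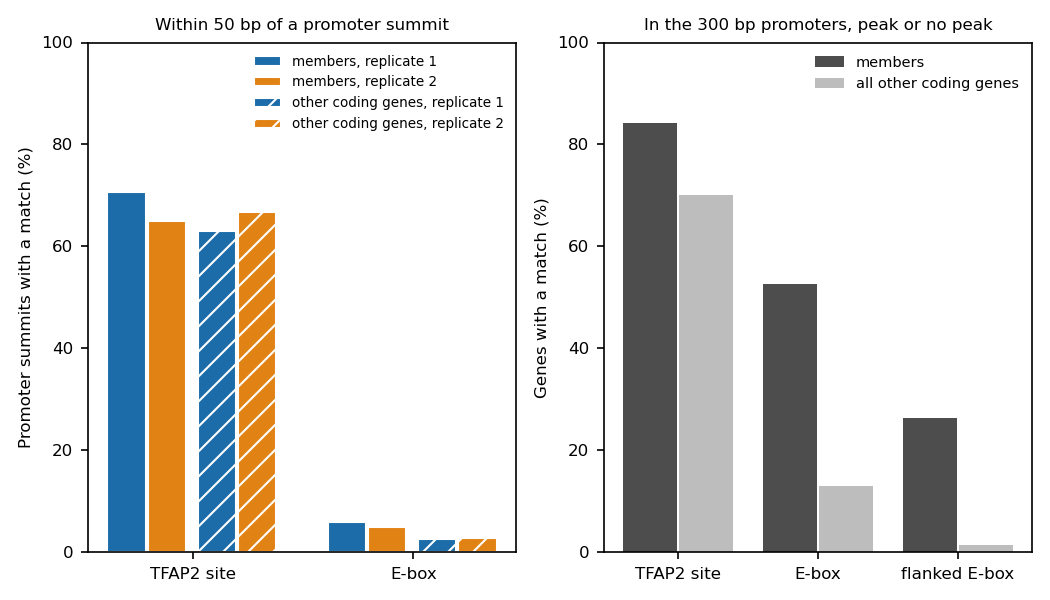
Left, percentage of promoter summits with a TFAP2 site or an E-box within 50 bp, for members (plain bars) and other coding genes (hatched bars) in each replicate. Right, percentage of genes with a TFAP2 site, an E-box or the longer flanked E-box in the 300 bp promoters, for members (dark) and all other coding genes (light). The summit bars are close between the groups, and the promoter E-box bars differ (52.6% and 13.0%).

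The promoters of Hexa and Lamp1 are printed as single cases with and without a peak, and were chosen after their values were seen. Both hold E-boxes, and within the set E-boxes were about as frequent with a promoter summit in both replicates (6 of 12) as without (14 of 26). Each runs from 250 bp upstream to 30 bp downstream of the first TSS in mm9, with capitals on TFAP2 and E-box matches.
Hexa, chr9:59387224-59387503, plus strand: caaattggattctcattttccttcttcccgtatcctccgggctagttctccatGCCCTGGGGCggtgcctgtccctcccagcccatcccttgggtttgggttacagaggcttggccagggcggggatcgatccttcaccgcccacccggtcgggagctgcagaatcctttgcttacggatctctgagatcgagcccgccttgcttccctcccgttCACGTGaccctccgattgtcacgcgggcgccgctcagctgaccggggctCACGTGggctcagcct
Lamp1, chr8:13158885-13159164, plus strand: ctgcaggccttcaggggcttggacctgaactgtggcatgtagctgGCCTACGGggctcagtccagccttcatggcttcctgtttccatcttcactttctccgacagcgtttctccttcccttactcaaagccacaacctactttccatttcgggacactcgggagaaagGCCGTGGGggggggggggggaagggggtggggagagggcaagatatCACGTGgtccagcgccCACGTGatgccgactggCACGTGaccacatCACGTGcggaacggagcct
Hexa held 2 E-boxes, of which the first began 35 bp upstream of the TSS, and a TFAP2A summit in each replicate that lay near its 2 overlapping TFAP2 matches and not at the E-boxes. Lamp1 held 4 E-boxes, which began 35, 19 and 2 bp upstream and 11 bp downstream of the TSS, and 2 TFAP2 matches, with no peak in either replicate.

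In the wider gene window, summits were found in 22 of 38 members in replicate 1 and 25 in replicate 2, beside 37.5% and 40.7% of other coding genes. In both replicates there were 21 (55.3%, 38.3 to 71.4%), beside 35.3%. No background of CpG-rich genes was counted for this window, so its shares and densities are not matched for CpG content. The median gene was longer in the members, 25.3 kb against 15.4 kb. Windows summed to 2270 kb over 38 members and 1.46e+06 kb over 22328 other genes, so the mean window was smaller in the members. Density is pooled over these sums, so long genes weigh most in it. Per 100 kb of window, the members held 2.36 ± 0.280 summits (SD, n = 2) and other coding genes 1.24 ± 0.123 (SD, n = 2). The replicates did not overlap, at 2.16 and 2.55 for members and 1.16 and 1.33 for the others. The density was 1.86 ± 0.272 for the V-ATPase, 1.76 ± 0.276 for HPS and AP-3 and 4.51 ± 0.304 for the 11 lysosomal genes (SD, n = 2 each). The 26 further lysosomal genes described at the end gave 1.96 ± 0.0676 (SD, n = 2). The densities of the V-ATPase and the HPS and AP-3 class differed by less than that spread. It is a spread between 2 peak lists over the same genes, and does not measure variation between genes in any of these comparisons. Of the 49 replicate 1 summits of the members, Lyst held 6, Scarb2 5, Hexa 5 and Atp6v0a1 4. The 4 AP-3 members gave 0.764 ± 0.360 (SD, n = 2), below other coding genes in each replicate, over windows of which the 207.4 kb gene Ap3b1 takes the largest share. V1 genes gave 0.492 in replicate 1 and 1.72 in replicate 2, so their order against the background changed with the replicate.

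Of the 49 replicate 1 summits in these windows, 44 had a replicate 2 partner. Of these pairs, 22 lay in introns of the member, 22 before or after the gene and 0 in exons of the member. Among those outside the gene, summits beyond Scarb2, Atp6v0a1 and Atp6v0c lay in exons of the neighbours Nup54, Naglu and Amdhd2. A TFAP2 site lay within 50 bp in 28, and for 13 the nearest coding TSS was that of another gene. The nearest coding TSS to the Atp6v0a1 summit beyond the end of the gene was that of Naglu, and to the Cd63 summit beyond its end that of Rdh5.

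The 5 members with most summits were Lyst (6 in each replicate), Scarb2 (5 and 6), Hexa (5 and 5), Atp6v0a1 (4 and 4) and Ctsb (3 and 3, tied with Hps5). In Lyst, 4 intronic regions were shared by the replicates. Besides the peak of 30.9 these were 5.58 ± 1.51, 4.80 ± 0.509 and 6.90 ± 1.08 (SD, n = 2) at 15.7, 22.7 and 23.7 kb from the TSS, and a region of 9.53 ± 1.48 (SD, n = 2) lay beyond the end of the gene. In Scarb2 the shared intronic regions lay 6.74, 12.0, 14.5 and 16.3 kb from the TSS, with the highest of them, 8.51 ± 0.773 (SD, n = 2), at 12.0 kb. In Hexa the summits lay at 5.57 kb upstream (6.47 ± 0.774), at the promoter and in introns at 3.70 kb (7.53 ± 1.79) and 5.21 kb (6.01 ± 0.319) (SD, n = 2 each), and the last (4.01 ± 0.707, SD, n = 2) lay beyond the end of the gene. In Ctsb intronic regions of 6.98 ± 0.810 and 4.78 ± 0.492 (SD, n = 2) followed at 9.86 and 12.1 kb. Atp6v0e, a small V0 subunit, had an intronic region of 11.6 in replicate 1 and 7.56 in replicate 2 at 12.6 kb.

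**Figure D4:**
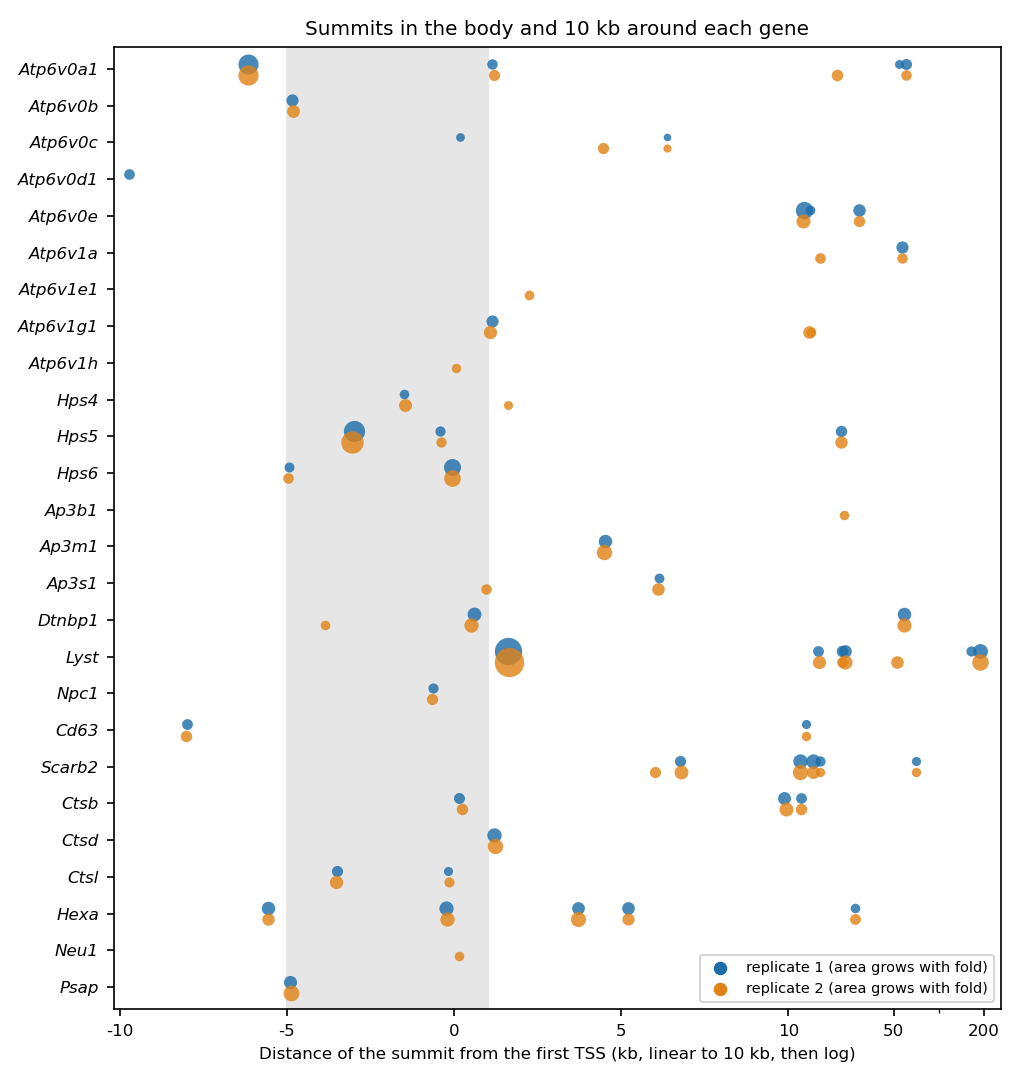
Distance of each TFAP2A summit from the first TSS, in kb, for the 26 genes with a summit in the gene window, with replicate 1 in blue and replicate 2 in orange and the area of a point growing with fold enrichment. The shaded band is the promoter window of the first TSS. The largest points belong to Lyst, just right of the band, and most points of replicate 1 have a replicate 2 point beside them.

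The 12 genes with no summit in the gene window in either replicate were Atp6v0a2, Atp6v1b2, Atp6v1c1, Atp6v1d, Atp6v1f, Hps1, Hps3, Ap3d1, Snapin, Vps33a, Lamp1 and Mcoln1. These are 31.6% of the members, beside 57.1% of other coding genes with none, a comparison not matched for CpG content. They include 4 of the 8 V1 genes (50.0%) and, of the lysosomal class, 2 membrane proteins. A peak below the threshold of the deposited lists cannot be told apart from no peak. A further 5 genes (Atp6v0d1, Atp6v1e1, Atp6v1h, Ap3b1 and Neu1) had summits in 1 replicate only, between 3.41 and 4.40 in fold enrichment.

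The same count was made for 52 other genes of these pathways. In both replicates 11 of 52 (21.2%, 11.1 to 34.7%) had a promoter summit, beside 17.1% of other coding genes. The order turned among the 50% most enriched peaks, with lists of equal length and with the nearest coding TSS (3.85% against 6.40%, 13.5% against 14.6% and 13.5% against 15.0%). In the gene window there were 24 of 52 (46.2%, 32.2 to 60.5%), beside 35.3%. Of 11 other V-ATPase genes the one counted was Tcirg1, which encodes the a3 subunit of V0. Of 15 other HPS and AP-3 genes there were 5, namely Bloc1s1, Bloc1s4 and Bloc1s5 of BLOC-1, Ap3m2 of the neuronal form of AP-3 and Vps16 of the HOPS tether. Of 26 other lysosomal genes there were 5, namely Ctsa, Glb1, Gusb, Naglu and Smpd1, which encode lysosomal hydrolases, while the other listed cathepsins were not counted. Among them Bloc1s5, the muted gene, had the highest promoter enrichment, with 25.0 in replicate 1 and 23.0 in replicate 2 (24.0 ± 1.42, SD, n = 2) at 1276 and 1258 bp upstream. Its window is shown for comparison with Hps5, and held 1 match.
Bloc1s5, chr13:38728204-38728304, minus strand: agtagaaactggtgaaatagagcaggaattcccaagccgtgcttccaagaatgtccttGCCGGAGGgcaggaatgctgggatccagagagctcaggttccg
In their 300 bp promoters, 16 of these 52 genes (30.8%) held an E-box.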

How the data were processed

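TFAP2A ChIP-seq was measured in 2 replicates of melan-a cells, with 1 input. The authors aligned reads to mm9 with BWA and called peaks with MACS 1.4.2, per the submitters' processing notes; no source used here gives the read filters. The deposited lists are in the narrowPeak layout with q-values and summit offsets, which later MACS releases write, so the caller's version and its exact definition of fold are uncertain. The deposited lists give per peak a ratio (fold enrichment over background), a −log10 p and q, and a score. The score equalled the whole part of 10 times −log10 p at every peak and was not used. Replicates were kept separate.

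Summits were assigned to genes of the GENCODE mouse version 1 annotation (mm9) with Python 3.11.15, pysam 0.24.0, numpy 2.4.6 and scipy 1.17.1, and the counting steps were tested on simulated data. Sequences were read from the mm9 genome (NCBIM37). For names with 2 gene models (Hps3, Glb1) the longest was used. Matching by synonym gave 6 names. Intervals are exact Clopper-Pearson 95% intervals for counting error only. No p-values were computed, since genes are not replicates. The members and lists were chosen with earlier results of these data known. All 38 members were to be named or counted, with sequences for the 8 of highest promoter enrichment outside chromosome 18 and gene windows for the 5 with most summits. Windows of 101 bp replace the planned 41 bp because sites were searched over 101 bp. The Lyst and Bloc1s5 sequences were added after their values were seen. Alternatives included stricter peaks, other windows, other TSS sets, other overlap rules and each replicate alone.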

Additional observations from a re-analysis of the deposited data

How the results depend on the processing

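No paired analysis was possible because both replicates belong to 1 group and no comparison came from a test; values of members and other genes in the same replicate stand side by side in the text. The order against other coding genes turned for several results. V-ATPase promoters went from 14.3% against 17.1% to 21.4% against 20.9% and 18.6% with 1 replicate alone and 7.14% against 6.40% in the upper 50%. Other pathway genes went from 21.2% against 17.1% to 3.85% against 6.40% in the upper 50%, 13.5% against 14.6% with equal list lengths and 13.5% against 15.0% with the nearest coding TSS. The TFAP2 share went from 67.8% against 64.9% to 58.6% against 66.7% in the upper 50%, 65.0% against 66.8% in replicate 2 alone and 22.2% against 23.2% with the longer consensus. The density of V1 summits (0.492 against 1.16 and 1.72 against 1.33 per 100 kb) turned between replicates, and the share of promoters with a TFAP2 site (84.2% against 70.1%) turned on CpG-rich promoters (86.1% against 87.2%). With the upper 50% of each list by enrichment, the promoter count fell to 7 of 38 members (6.40% of other coding genes), with 1 V-ATPase gene, 3 lysosomal genes and 2 other pathway genes, and losing Atp6v0a1, Ctsb, Ctsl, Hps4 and Npc1; the lysosomal gene-window count was 5 (45.5%, beside 19.4%). With 1 kb to each side of the TSS there was 1 V-ATPase gene among 8 members (12.9% of others), and with the 5-most TSS only 1 among 10 (13.9%). Equal list lengths left 7 other pathway genes. Counting only the nearest coding TSS, an alternative chosen after the data were seen, left 1 V-ATPase gene and 7 other pathway genes. The gene body alone gave 13 members (34.2%) and 4 lysosomal genes (36.4%), beside 21.1% of others, and 100 kb around it 32 members, 11 V-ATPase and 12 HPS and AP-3 genes (72.5% of others). The longer consensus was GCCNNNGGC. The TFAP2 share was 81.6% within 100 bp (79.8% for other genes), and the E-box share 7.94% within 100 bp (4.91% for other genes). The cause of these changes was not tested. With 1 replicate alone, promoter counts were 13 to 15 members, 3 to 3 V-ATPase, 4 to 5 HPS and AP-3, 6 to 7 lysosomal and 13 to 14 other pathway genes; gene-window counts were 22 to 25, 7 to 8, 7 to 8 and 8 to 9. The ratio of member to other median enrichment was 1.04 to 1.13, the TFAP2 share 65.0 to 70.6% and the E-box share 5.00 to 5.88%. Depth is unknown, so weak peaks found in 1 list may lie near its threshold.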

Other observations

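The genes of the MiT/TFE factors that act on lysosomal promoters were examined as well. Tfeb had promoter summits from both replicates at 3 places, all in introns near internal TSSs, with enrichments of 3.36 ± 0.0252, 4.97 ± 0.0566 and 6.63 ± 0.180 (SD, n = 2), and replicate 2 added 3 more summits there. Mitf had 8.18 and 13.2 (10.7 ± 3.58, SD, n = 2) at 1132 and 1131 bp upstream of a TSS, the highest promoter enrichment of these 4 genes, and 9 and 10 summits in its gene window. Tfe3 and Tfec had no summit in the gene window, and their nearest lay 39.6 and 154.9 kb from a TSS in replicate 1. The promoters of all 4 genes held no E-box in the 300 bp windows.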
